A study of Homo sapiens with 9 samples.

Results

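The 9 genes described here encode the ligands VEGFA, VEGFB, VEGFC and PGF of the vascular endothelial growth factor (VEGF) family, the ligands PDGFA, PDGFB and PDGFC of the platelet-derived growth factor (PDGF) family, and the co-receptors NRP1 and NRP2. They were chosen by name from the 11963 genes that the array annotation identified, with earlier results of these data known. Each is described whatever its values. All 9 were found, with 23 probe sets between them. Where a gene had several, the probe set brightest on average stands for it and the rest serve as a check. The cells were HK-2, a line of human kidney proximal tubule epithelium immortalised with papillomavirus genes. There were 3 groups of 3 arrays: untreated cells at 0 h, cells after 24 h of transforming growth factor β1 (TGFβ1) and cells after 48 h of TGFβ1. All groups grew in a medium with EGF, hydrocortisone, triiodothyronine and insulin, transferrin and selenium. Each array held pooled plates of 1 time point from 1 of 3 runs on separate days with consecutive passages, so replicates differ as repeat runs of 1 cell line do. No TGFβ1 dose was found in the labels, and the control is called untreated there but vehicle in the design text. Untreated cultures kept for 24 h or 48 h were not analysed here, so the effects of TGFβ1 and of time in culture cannot be told apart.

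VEGF ligands are secreted dimers that bind receptor tyrosine kinases of endothelial cells. VEGFA is the principal factor for blood vessels and is made by kidney epithelium, including podocytes and tubules, next to the capillaries it acts on. VEGFC acts mainly through the receptor FLT4 and is known for the growth of lymphatic vessels. PDGF ligands act on mesenchymal cells such as pericytes and fibroblasts through PDGFRA and PDGFRB, and are known for their part in kidney fibrosis. Neuropilins bind both VEGF ligands and class 3 semaphorins and pass the signal on together with VEGF receptors or plexins.

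The labelled cell type was checked against its markers. Of 6 epithelial genes, 5 reached a log2 value of 4 on at least 3 arrays, the level taken here as the filter, and the E-cadherin gene CDH1 did not. Of 8 proximal tubule genes, the transcription factor gene PAX8 passed and AQP1, CUBN, LRP2, ANPEP, ALPL, SLC34A1 and SLC5A2 did not. None of 9 endothelial genes passed (0.94 to 2.46 on single arrays) and none of 4 leukocyte genes (1.01 to 1.84). LUM passed of 7 fibroblast and pericyte genes, and PTPRO of 4 podocyte genes. LUM and PTPRO are named after their values were seen. The summed log2 values of the fibroblast and pericyte genes were 17.36 to 19.89 in untreated cells (0 h), 18.07 to 20.31 at 24 h and 18.54 to 20.44 at 48 h. Those of the 6 epithelial genes were 43.58 to 44.62 in untreated cells (0 h), 40.54 to 42.19 at 24 h and 40.08 to 41.55 at 48 h. Their part in the results was not tested. Of 6 TGFβ response genes tested, 5 were called higher at each time and 0 lower in limma. None was lower at an unadjusted p under 0.05 either. Over all genes tested, 2.63% were called higher at 24 h and 2.27% at 48 h. With the run as a block, 6 were called higher at 24 h and 5 at 48 h, against 5.95% and 5.22% of all genes. With all 9 arrays, CCN2 passed only with the block and only at 24 h (limma adjusted p = 0.0166). Without the block it passed at 24 h when the untreated array of run 2 was left out (limma adjusted p = 0.0462). The list was written with earlier results of these data known, so its counts are a description. PMEPA1, an inhibitor of TGFβ signalling, averaged 2.43 ± 0.23 in untreated cells (0 h), 5.12 ± 0.20 at 24 h and 4.90 ± 0.06 at 48 h (SD, n = 3 each). It reached 4 on treated arrays only, and so passed the filter only through the groups where it was high.

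Of the 9 genes 5 were tested, and only VEGFC passed the test without regard to run. It rose at both times, where 2.63% and 2.27% of all genes tested were called higher. Of the other genes, PDGFC was higher and VEGFA and NRP1 were lower in all 3 runs at both times, by differences that did not pass that test. Among all genes tested, 24.9% were higher in all 3 runs at 24 h and 23.2% at 48 h, and 19.8% and 18.2% were lower. With the run as a block, NRP1 at 24 h and PDGFC at 48 h passed too (limma adjusted p = 0.0335 and 0.0213). That fit called 5.52% of all genes tested lower at 24 h and 5.22% higher at 48 h. VEGFB, PDGFA, PDGFB and NRP2 stayed below the filter on every array, and PGF showed no difference larger than the spread. The levels by array are drawn in the plot of all 9 genes.

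**Figure D1:**
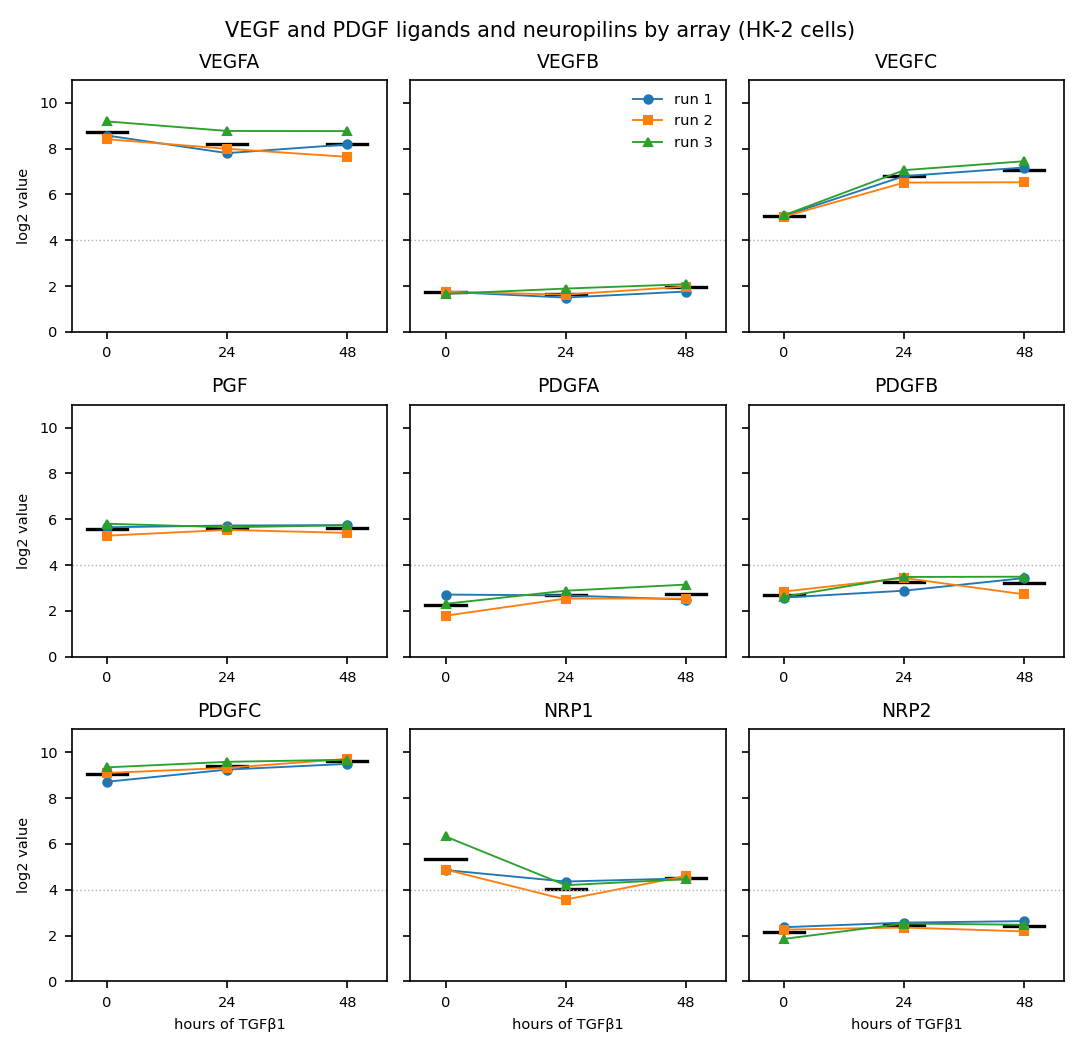
Log2 value of the chosen probe set of each of the 9 genes (vertical axis) by hours of TGFβ1 (0, 24 and 48 h); coloured lines join the 3 arrays of a run, black bars are group means of 3 arrays, and the dotted line is the log2 value of 4 used as the filter. The 3 untreated VEGFC arrays lie between 5.03 and 5.09 and all 6 treated ones at 6.52 or more, while NRP1 shows 1 untreated array at 6.33.

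VEGFC, on chromosome 4, was read by a single probe set. Its log2 values in untreated cells were 5.07, 5.03 and 5.09 in runs 1, 2 and 3. At 24 h they were 6.80, 6.52 and 7.06, and at 48 h 7.18, 6.53 and 7.45. All treated arrays were above all untreated ones, and the treated groups were more spread than the untreated group (SD 0.03 untreated, 0.27 at 24 h and 0.47 at 48 h). The log2 fold change was 1.73 ± 0.23 (SE) at 24 h, which is 3.32-fold with a 95% interval of 2.32 to 4.76 (limma adjusted p = 0.00264). At 48 h it was 1.99 ± 0.23, or 3.98-fold with an interval of 2.77 to 5.70 (limma adjusted p = 0.00135). These differences ranked 27 and 19 from the top among the 4368 genes tested.

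Within runs, VEGFC rose by 1.74, 1.49 and 1.97 at 24 h and by 2.11, 1.50 and 2.36 at 48 h on the log2 scale. Run 2 had the smallest difference at both times and run 3 the largest. Between 48 h and 24 h the within-run differences were 0.38, 0.01 and 0.39, and the log2 fold change of 0.26 ± 0.23 had a 95% interval of -0.26 to 0.78 (limma adjusted p = 0.794). VEGFC, PDGFC, NRP1 and VEGFB were higher at 48 h than at 24 h in all 3 runs, as were 21.1% of the genes tested. Left out in turn, no single array changed a VEGFC call. Without the whole of run 1 the log2 fold changes were 1.73 and 1.93 and the adjusted p-values 0.122 at 24 h and 0.118 at 48 h. At 24 h, 2.63% of the genes tested were called higher and 2.17% lower, and at 48 h 2.27% were called higher and 2.17% lower. Of the 9 genes 5 were tested, and 1 was called higher and 0 lower at each time in limma. At an unadjusted p under 0.05 the count was 2 of 5 at 24 h (VEGFC and NRP1), against 16% of all genes tested, and 3 of 5 at 48 h (these and PDGFC), against 13.9%. With the run as a block it was 4 of 5 at each time (all but PGF), against 27.7% and 22.9% of all genes.

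The RefSeq sequence before the start of VEGFC is shown because VEGFC was the gene called. It covers 250 bases at chr4:176792923-176793172 of GRCh38.p14 on the minus strand, 5′ to 3′, and ends at the base before the start. Capitals mark matches to the GC box GGGCGG on either strand.
VEGFC: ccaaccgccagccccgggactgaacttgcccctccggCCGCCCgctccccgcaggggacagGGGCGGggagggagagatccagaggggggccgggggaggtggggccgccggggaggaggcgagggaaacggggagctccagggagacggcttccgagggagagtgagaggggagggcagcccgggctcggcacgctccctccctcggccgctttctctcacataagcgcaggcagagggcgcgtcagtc
The window held 2 such matches, and 42.6% of 35116 RefSeq windows of the same length held at least 1. Its GC content was 74.0%, against a median of 58.0% over those windows. The window held no match on either strand to the SMAD core CAGAC (38.0% of windows), the HIF core ACGTG (18.5%), the AP-1 motif TGANTCA (6.57%) or the E-box CACCTG (17.5%). None of these motifs overlapped a marked match, and a missing match says only that these letters are not in this window.

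VEGFA is on chromosome 6. In untreated cells its log2 values were 8.57, 8.41 and 9.19, at 24 h 7.81, 8.00 and 8.77, and at 48 h 8.18, 7.64 and 8.77. Run 3 was the highest in every group, and its treated arrays were above the untreated arrays of runs 1 and 2, so the groups overlapped. Within runs VEGFA was lower at 24 h by 0.77, 0.42 and 0.42 and at 48 h by 0.39, 0.77 and 0.42, 3 of 3 runs at each time. Among all genes tested, 19.8% were lower in all 3 runs at 24 h and 18.2% at 48 h. The log2 fold change was -0.53 ± 0.34 at 24 h (limma adjusted p = 0.512) and -0.53 ± 0.34 at 48 h (limma adjusted p = 0.605), neither past the threshold. With the run as a block the SE fell to 0.15 and the adjusted p-values were 0.0522 and 0.0604. The 95% interval at 24 h without the block, which takes no account of the runs, was -1.30 to 0.24 and includes no difference. With the block the unadjusted limma p-values were 0.0062 at 24 h and 0.0066 at 48 h. In that fit 27.7% and 22.9% of all genes tested had an unadjusted p under 0.05. Without the block, leaving out 1 array at a time gave -0.82 to -0.30 at 24 h and -0.81 to -0.25 at 48 h. Leaving out a whole run, which keeps the runs equal between groups, gave -0.59 to -0.42 and -0.60 to -0.41. Between 48 h and 24 h VEGFA differed by 0.01 ± 0.34.

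VEGFA was read by 4 probe sets, and all 4 had a negative log2 fold change at both times. At 24 h the other 3 had -0.36, -0.42 and -0.09, and at 48 h -0.52, -0.50 and -0.26. The second brightest, at 5.38 to 6.83 on single arrays, had adjusted p-values of 0.649 and 0.564 with every probe set tested. No VEGFA probe set passed the threshold with or without the block. Probe sets of 1 gene share RNA and arrays and are not replicates.

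PGF, which encodes placental growth factor, a ligand of the VEGF receptor FLT1, had log2 values of 5.28 to 5.80 in untreated cells (0 h), 5.53 to 5.72 at 24 h and 5.40 to 5.74 at 48 h, and the groups overlapped. Its log2 fold changes were 0.06 ± 0.17 at 24 h (95% interval -0.32 to 0.44) and 0.05 ± 0.17 at 48 h (-0.33 to 0.43). A change of more than 0.44 in either direction lay outside these intervals. Probe sets of its design class may hold probes that also match related sequences. A second, dim PGF probe set stayed between 2.07 and 2.98 and had a difference of 0.35 ± 0.17 at 24 h and 0.02 ± 0.17 at 48 h, with adjusted p-values of 0.528 and 0.993 over every probe set. VEGFB, a ligand of FLT1 linked to fatty acid uptake by endothelium in mice, was read by 1 probe set between 1.50 and 2.08. Its arrays at 48 h did not overlap those of untreated cells (1.76, 1.98 and 2.08 against 1.75, 1.75 and 1.66), but 9.75% of the genes tested showed such a gap upwards at this time. The limma adjusted p was 0.718 in a fit with no filter on low values, which called 1.76% of 11963 genes at 24 h and 1.77% at 48 h, and levels this low cannot be told from background.

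PDGFC was the PDGF ligand with values above the filter. It lies on chromosome 4 and encodes a ligand that is secreted in a latent form and freed by proteases. Log2 values were 8.72, 9.10 and 9.34 in untreated cells (0 h), 9.25, 9.32 and 9.59 at 24 h and 9.50, 9.71 and 9.68 at 48 h. The arrays at 48 h were all above the untreated ones, whereas those at 24 h overlapped them. Within runs PDGFC was higher by 0.53, 0.22 and 0.24 at 24 h and by 0.78, 0.61 and 0.33 at 48 h. Of all genes tested, 24.9% were higher in all 3 runs at 24 h and 23.2% at 48 h. The log2 fold change was 0.33 ± 0.18 at 24 h (limma adjusted p = 0.426; 0.123 with the run as a block) and 0.58 ± 0.18 at 48 h (limma adjusted p = 0.135). Leaving out 1 array at a time gave 0.16 to 0.48 at 24 h, lowest without the untreated array of run 1, and 0.41 to 0.72 at 48 h. Such fits, made without the block, leave the runs unequal between groups. With a whole run left out PDGFC was at 0.23 to 0.39 at 24 h and 0.47 to 0.70 at 48 h. With the run as a block the difference at 48 h passed the threshold (SE 0.12, adjusted p = 0.0213), a 1.49-fold higher level. In that fit 5.22% of the genes tested were called higher and 4.81% lower at 48 h, and 2 of the 5 members tested were called higher, PDGFC and VEGFC. The difference between 48 h and 24 h was 0.24 ± 0.18 and did not pass in either fit (adjusted p = 0.781; 0.363 with the block).

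PDGFA and PDGFB, whose products form the classical PDGF dimers, were not above the filter on any array. The brighter PDGFA probe set had 1.79 to 2.71 in untreated cells (0 h), 2.54 to 2.88 at 24 h and 2.49 to 3.15 at 48 h. Its difference was 0.43 ± 0.25 at 24 h and 0.46 ± 0.25 at 48 h, and run 1 was lower at both times. The second PDGFA probe set stayed between 1.28 and 1.69. PDGFB had 2.58, 2.84 and 2.62 in untreated cells (0 h), 2.88, 3.43 and 3.48 at 24 h and 3.43, 2.72 and 3.49 at 48 h. The arrays at 24 h did not overlap the untreated ones, as for 8.68% of the genes tested upwards, and run 2 was lower than untreated at 48 h. In the fit with no filter its log2 fold changes were 0.58 ± 0.23 and 0.53 ± 0.23 (limma adjusted p = 0.363 and 0.495). The other 3 PDGFB probe sets lay between 0.88 and 3.13 and differed by -0.14 to 0.07.

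NRP1 lies on chromosome 10. Its log2 values were 4.86, 4.88 and 6.33 in untreated cells (0 h), 4.36, 3.57 and 4.20 at 24 h and 4.50, 4.60 and 4.46 at 48 h. All treated arrays were below all untreated ones, as was the case for 7.72% of the genes tested at 24 h and 8.31% at 48 h. The untreated array of run 3 stood well above the other two. Within runs NRP1 was lower by 0.50, 1.31 and 2.13 at 24 h and by 0.36, 0.29 and 1.86 at 48 h. The log2 fold change was -1.31 ± 0.37 at 24 h (limma adjusted p = 0.091) and -0.84 ± 0.37 at 48 h (limma adjusted p = 0.351). With the run as a block, NRP1 was called lower at 24 h (adjusted p = 0.0335), in a fit that called 5.52% of the genes lower and 5.95% higher, and not at 48 h (0.159). Without the untreated array of run 3 the value at 24 h was -0.83 ± 0.22 (adjusted p = 0.0989) and that at 48 h was -0.35 ± 0.22 (adjusted p = 0.463). Both differences were smaller without that array, in a fit that leaves the runs unequal between groups. With a whole run left out NRP1 was at -1.72 to -0.91 at 24 h and -1.11 to -0.32 at 48 h. The difference was smallest without run 3 at both times. The difference between 48 h and 24 h was 0.48 ± 0.37 (adjusted p = 0.792), although the arrays did not overlap. Such a gap upwards was seen for 6.34% of the genes tested. Both other NRP1 probe sets were dim (1.32 to 2.56) and differed by 0.23 and -0.08 at 24 h and by 0.24 and -0.06 at 48 h, so neither showed a difference of the size seen with the chosen one.

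NRP2 was below the filter on all 9 arrays with all 5 of its probe sets. The brightest had 2.36, 2.26 and 1.85 in untreated cells (0 h), 2.57, 2.35 and 2.53 at 24 h and 2.63, 2.18 and 2.47 at 48 h, and its differences of 0.32 ± 0.17 and 0.27 ± 0.17 had adjusted p-values of 0.532 and 0.723 with no filter. The 5 probe sets differed by 0.02 to 0.32 at 24 h and by -0.03 to 0.27 at 48 h.

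**Figure D2:**
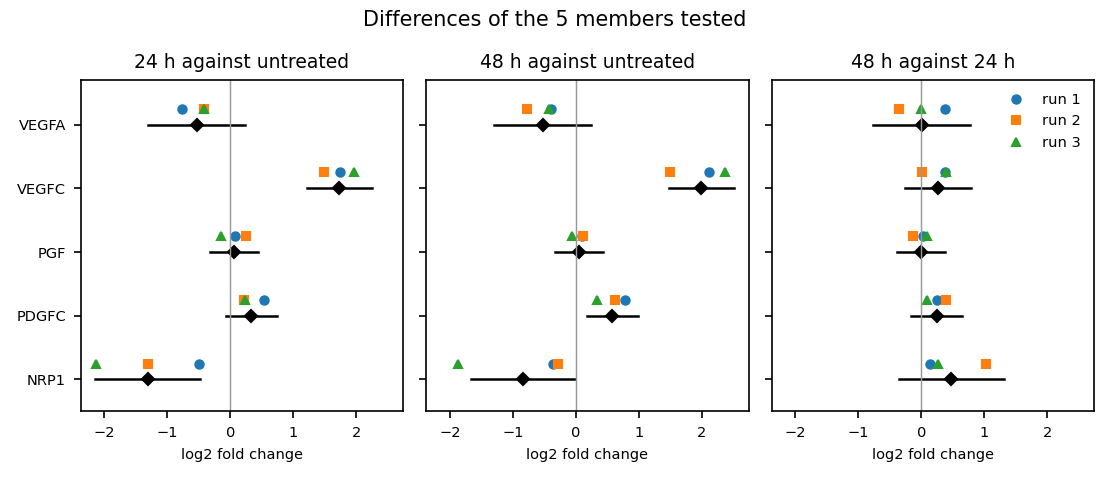
Log2 fold change (horizontal axis) of the 5 genes tested in the 3 comparisons; black diamonds and lines are the limma estimate and its 95% interval from 3 arrays a group, coloured points the differences within runs 1, 2 and 3. VEGFC lies above 0 in all 3 runs at both times, and the NRP1 differences at 24 h spread between -2.13 and -0.50.

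**Figure D3:**
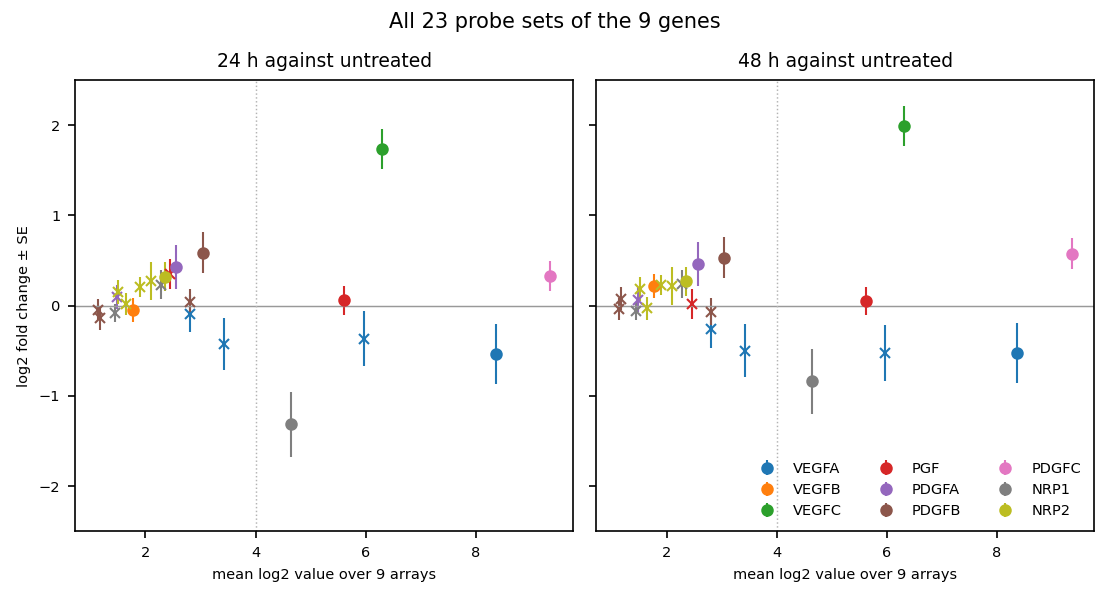
Log2 fold change with its SE (vertical axis) against the mean log2 value over the 9 arrays (horizontal axis) for all 23 probe sets of the 9 genes, at 24 h and at 48 h against untreated cells; circles are the chosen probe sets, crosses the others, and the dotted line the log2 value of 4. All 4 VEGFA probe sets lie below 0, and the dim probe sets of NRP1 do not follow the chosen one.

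Between 48 h and 24 h none of the 9 genes passed the threshold, and 0 of all 4368 genes tested did in limma (0%), with or without the run as a block. At an unadjusted p under 0.05 there were 218 such genes, or 709 with the block, and 0 of the 5 members tested.

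The receptors of these ligands were below the filter in HK-2 cells. FLT1, KDR, FLT4, PDGFRA, PDGFRB and the further ligand gene PDGFD stayed between 0.99 and 2.17 on every array, in treated and untreated cells. VEGFD was not analysed here. With values at background no statement on their change was possible.

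Of the genes for enzymes that process these ligands, 3 were tested and 1 was called lower at each time, against 2.17% of all genes tested. ADAMTS3, a protease that cleaves the VEGFC precursor into its more active form, had log2 values of 7.85, 8.00 and 8.11 in untreated cells (0 h), 6.61, 6.13 and 6.27 at 24 h and 6.82, 7.07 and 6.69 at 48 h. No treated array overlapped an untreated one. The log2 fold change was -1.65 ± 0.17 at 24 h (limma adjusted p = 0.000704) and -1.13 ± 0.17 at 48 h (limma adjusted p = 0.00496), so that ADAMTS3 fell while VEGFC rose. Left out in turn, no single array changed either call, while at 48 h leaving out run 1 or run 3 gave adjusted p-values of 0.0905 and 0.125. PLAT passed the threshold, as lower, only with the run as a block. It encodes tissue plasminogen activator, which can free PDGFC from its latent form, and is named here after its values were seen. It was at -0.74 ± 0.28 at 24 h and -0.83 ± 0.28 at 48 h (limma adjusted p = 0.226 and 0.183; 0.00789 and 0.00489 with the block). Without the block and the 24 h array of run 1 the PLAT value at 24 h was -0.45. That fit has unequal runs between groups, and with a whole run left out PLAT was at -0.80 to -0.65. PLAU, encoding urokinase, was at 0.10 and -0.02. FURIN, PCSK5, PCSK6 and PCSK7, encoding proprotein convertases, were below the filter, and CCBE1 was not analysed here.

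Of 7 class 3 semaphorins, the neuropilin ligands, SEMA3C and SEMA3F were tested. SEMA3C had 7.67, 7.24 and 7.62 in untreated cells (0 h), 8.56, 7.89 and 8.15 at 24 h and 8.79, 8.32 and 8.68 at 48 h. It rose at 48 h (1.08 ± 0.21, limma adjusted p = 0.0182, or 0.000606 with the run as a block). At 24 h it was at 0.69 ± 0.21 (limma adjusted p = 0.121, or 0.00553 with the block). In the fit without the block, the call at 48 h was lost without untreated replicate 2 (0.95, adjusted p = 0.0587). It was also lost without replicate 1 or 3 of the 48 h group (0.99 and 1.04, adjusted p = 0.086 and 0.0823). These fits leave the runs unequal between groups. Without the whole of run 1 or run 3 the call was lost too (1.07 and 1.10, adjusted p = 0.152 and 0.204). SEMA3F was at 0.26 and 0.29 and did not pass. PLXND1, a plexin that binds semaphorins with or without neuropilins, had a value of 0.48 ± 0.21 at 24 h and 0.49 ± 0.21 at 48 h (limma adjusted p = 0.296 and 0.32; 0.0178 and 0.018 with the block). Without the block and the untreated array of run 2 the PLXND1 values were 0.31 and 0.32, as with the mean of its probe sets. Leaving out 1 array makes the runs unequal between groups. With a whole run left out, PLXND1 was at 0.46 to 0.51 at 24 h and 0.449 to 0.545 at 48 h. PLXNA1, PLXNA2 and PLXNA3 were below the filter.

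VEGFA is a known target of hypoxia-inducible factors, and 3 of the 7 genes of that pathway identified on the array were tested. EPAS1, which encodes the HIF-2α subunit, had 8.92, 9.06 and 9.52 in untreated cells (0 h), 7.74, 7.43 and 8.07 at 24 h and 7.70, 7.41 and 8.12 at 48 h. It fell by 1.42 at 24 h and by 1.43 at 48 h (SE 0.24, limma adjusted p = 0.0101 and 0.00944). With the mean of its probe sets the values were -0.88 and -0.92 (adjusted p = 0.0372 and 0.0319). No array left out alone changed these calls, which were lost without run 1 (adjusted p = 0.161 and 0.179) and without run 2 (0.0538 and 0.0618). HIF1A, named after its values were seen, was at -0.62 ± 0.21 and -0.49 ± 0.21 (limma adjusted p = 0.162 and 0.315; 0.0131 and 0.0377 with the block), and EGLN1, encoding an oxygen-sensing hydroxylase, at 0.16 and 0.02. Of 9 hypoxia target genes tested, 0 passed at either time in limma, and 2 of 9 had an unadjusted p under 0.05 at each time, CA12 lower and SLC2A1 higher, against 16% and 13.9% of all genes tested. With the run as a block, CA12, ADM (the vasodilator adrenomedullin), BNIP3 (a mitophagy receptor) and NDRG1 were called lower and SLC2A1 (a glucose transporter) higher at 24 h, and CA12 lower and SLC2A1 higher at 48 h. That fit called 5.52% of all genes tested lower and 5.95% higher at 24 h, and 4.81% lower and 5.22% higher at 48 h. In the fit without the block, leaving out the untreated array of run 3 gave -0.36 for ADM and -0.34 for NDRG1 at 24 h. Leaving out the 24 h array of run 3 gave 0.31 for SLC2A1. Such fits leave the runs unequal between groups. With a whole run left out, the values at 24 h were -0.99 to -0.67 for ADM and -0.99 to -0.86 for NDRG1. Those of SLC2A1 were 0.39 to 0.64. CA12, a carbonic anhydrase gene, had -1.71 ± 0.46 at 24 h and -1.50 ± 0.46 at 48 h (adjusted p = 0.0789 and 0.13; 0.00358 and 0.00698 with the block). Without the block CA12 passed at 24 h with an intensity trend (limma adjusted p = 0.0478) and without the 24 h array of run 3 (-2.17, limma adjusted p = 0.036). In the other fits without the block it did not pass at either time. Its log2 values were 4.07 to 5.24 on untreated arrays and 2.01 to 3.87 on treated ones. CA12 reached 4 on untreated arrays only, and so passed the filter only through the group where it was high. Over the 9 genes the median was -0.38 at 24 h and -0.10 at 48 h on the log2 scale, against 0.015 and 0.023 over all genes tested.

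**Figure D4:**
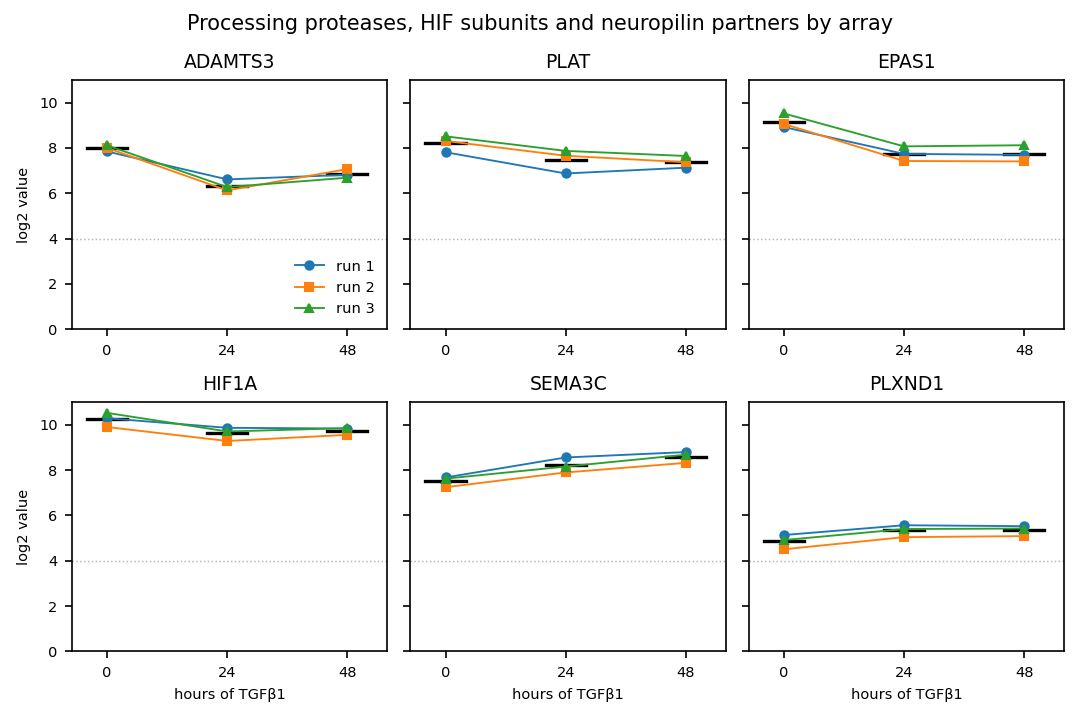
Log2 values (vertical axis) by hours of TGFβ1 for ADAMTS3 and PLAT, EPAS1 and HIF1A, and SEMA3C and PLXND1; coloured lines join the 3 arrays of a run, black bars are group means and the dotted line is the log2 value of 4. ADAMTS3 lies at 6.13 to 6.61 at 24 h against 7.85 to 8.11 untreated. EPAS1 is lower than untreated at 24 h and 48 h in all 3 runs, and the lines of runs 1 and 2 cross.

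Among 11 other angiogenic genes 5 were tested, and 2 rose at both times. Of all genes tested, 2.63% were called higher at 24 h and 2.27% at 48 h. EFNB2, encoding ephrin-B2, a marker and regulator of arterial and lymphatic vessels, had 4.33, 4.32 and 4.52 in untreated cells (0 h), 5.26, 5.52 and 5.26 at 24 h and 5.22, 5.24 and 5.07 at 48 h. Its log2 fold change was 0.96 ± 0.13 at 24 h (limma adjusted p = 0.00338) and 0.79 ± 0.13 at 48 h (adjusted p = 0.00922). The call was lost at 24 h without run 1 (0.114) or run 2 (0.0538), and at 48 h with any run left out (0.0651 to 0.215). THBS1, encoding thrombospondin-1, an inhibitor of vessel growth and activator of latent TGFβ, had 5.04, 5.70 and 6.18 in untreated cells (0 h), 6.52, 7.91 and 7.26 at 24 h and 7.13, 7.48 and 7.21 at 48 h. It was at 1.59 ± 0.36 and 1.63 ± 0.36 (limma adjusted p = 0.0373 and 0.0345). Its calls were lost in 7 of 9 fits at 24 h and 6 of 9 at 48 h that left out 1 array, with log2 fold changes of 1.25 to 1.95 and 1.33 to 1.90. FGF2, CCN1 and CXCL8 were at -0.42, 0.17 and 0.01 at 24 h and did not pass, and ANGPT1, ANGPT2, ANGPTL4, FGF1, HGF and EDN1 were below the filter.

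The genes whose values over the 9 arrays were most like those of VEGFC among the 4368 tested were UAP1 (Pearson r = 0.984), TSPAN13 (0.978) and IL11 (0.971). UAP1 encodes an enzyme that makes UDP-N-acetylglucosamine, TSPAN13 a tetraspanin and IL11 a cytokine. For VEGFA they were IGF2R (0.965), CES2 (0.949) and NDRG1 (0.937), and NDRG1 is the hypoxia target named above. For NRP1 they were GCA (0.983), PELI1 (0.968) and GULP1 (0.963), and without the untreated array of run 3 the coefficients were 0.940, 0.878 and 0.924. The 9 arrays share 3 runs and 3 groups, so these coefficients describe both.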

How the data were processed

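Total RNA of HK-2 cells was read on 9 single-colour Affymetrix arrays. The values deposited by the authors are 1 log2 value per probe set, made with GCRMA (background correction by probe sequence, normalization between arrays, summarising of probes) per the submitters' processing notes, which give no version. That base 2 applies was inferred from the highest value, 12.5. Array medians lay between 2.20 and 2.23. Among 22277 probe sets there were 62 controls. In the platform annotation 19070 had 1 gene symbol, 1043 several and 2164 none, and symbols were updated through gene IDs for 19058. Values were not normalized further.

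Each of the 11963 named genes was represented by its brightest probe set, averaged across all arrays. The test took 4368 genes (36.5%), those reaching 4 on the log2 scale on 3 or more arrays. All 9 arrays entered 1 linear model in limma 3.58.1 (R 4.3.3) with moderated two-sided tests, Benjamini-Hochberg adjustment over the genes tested and a threshold of 0.05. The procedure was tested on simulated data that held no effect of the run, so that test does not cover the likeness of arrays within a run. Deviations from group means correlated at 0.378 to 0.662 for arrays sharing a replicate number, and at -0.526 to 0.185 for arrays that did not. Since the labels place the experiment on 3 days, the number was taken as the run, and a fit with the run as a block is given where it changes a call. Other alternatives were other filters, every probe set or the mean of a gene's probe sets, quantile normalization, median centring, an intensity trend, only the groups compared, and leaving out arrays or runs. Detection calls were not used. Precision is limited by the number of arrays.

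The named genes were the 9 members, up to 4 members of each pathway list past the threshold or else the tested one with the smallest F-test p, the 3 genes most correlated with VEGFC, VEGFA and NRP1, and TGFβ response genes. Other list genes are named after their values were seen. The members and lists were chosen with earlier results of these data known. The promoter sequence is from RefSeq (GRCh38.p14), which had entries for 5 of the 9 members. Tables and motifs were made with Python 3.11.15.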

Additional observations from a re-analysis of the deposited data

How the results depend on the processing

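The numbers of members called were higher with the run as a block, with 1 lower at 24 h (NRP1) and 2 higher at 48 h (VEGFC and PDGFC). Leaving out arrays or runs gave between 0 and 1 called higher at each time, 0 only without replicate 1. Over all genes the fit with the replicate block called 260 higher and 241 lower at 24 h and 228 higher and 210 lower at 48 h, and it included all 210 and 194 genes called without it. Fitting only the groups of the comparison gave 70 higher and 54 lower at 24 h, against 115 and 95. Leaving out arrays or runs gave 23 to 110 higher and 11 to 103 lower at 24 h, and 18 to 118 higher and 15 to 102 lower at 48 h; the fits without an array or run have fewer samples. VEGFC kept its calls in every setting except without replicate 1, with adjusted p-values of 0.000394 to 0.0152 at 24 h and 0.000198 to 0.0101 at 48 h when no run was left out, and at most 0.0472 and 0.0395 without run 2 or 3. Of 309 values of the 5 members tested under the alternatives, 305 kept their side of the threshold. This count includes 48 h against 24 h, where 0 of all genes were called in any setting. Such values could hardly change side, so the count is no measure of robustness. NRP1 was not tested with the stricter filter or with the mean of its probe sets. EFNB2 was at 0.62 (adjusted p = 0.0682) at 48 h with the mean of its probe sets. THBS1 missed the threshold with no filter at both times (adjusted p = 0.0622 and 0.0572). SMAD7 was at 1.62 (adjusted p = 0.0776) at 24 h in the fit of the compared groups alone. The cause was not tested. Signals near the array medians limit the dim genes.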
